A study of Mus musculus with 18 samples.

Results

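The sarcomere is the contractile unit of heart muscle, and the 34 genes described here encode parts of it: thick and thin filament proteins, the M-band, the Z-disc, and factors that assemble or degrade these structures. The genes were taken as a list of symbols, which was matched to the 30072 Ensembl genes of the deposited tables. All 34 were found. All 34 also passed the filter on low values, which asked for 0.23 CPM (reads of the gene relative to the library's total) or more in 6 mice or more and left 15054 genes for testing, so none was lost for want of reads. Total RNA came from the intraventricular septum (as the labels spell it) of 18 adult CD-1 mice, an outbred stock, aged 8 weeks or more and of both sexes, and the labels name no engineered allele for these animals. By the labels, control mice (n = 6) received anesthesia and no radiation. The treated mice received 1 dose of 25 Gy under isoflurane, which the labels call gamma irradiation. They were studied 2 weeks (n = 6) or 6 weeks (n = 6) later. The study itself describes an X-ray source, and CT imaging of treated and sham mice alike. The study's methods speak of ventricular tissue, and the labels give no sex or litter for a single mouse, so the spread between mice includes both. Unless TPM, a unit corrected for transcript length, is named, levels are CPM scaled with TMM (trimmed mean of M-values), a method that assumes that most genes do not change.

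In each sarcomere, thick filaments of myosin pull on thin filaments of actin. Tropomyosin and the troponin complex make that pull depend on calcium. The thin filaments are anchored at the Z-disc, the thick filaments are linked to each other at the M-band, and titin spans the distance between both. Adult ventricular and atrial myocytes use different myosin light chains, so the light chain genes also mark the chamber that a piece of tissue came from. Many of the other members are known as genes of inherited cardiomyopathy.

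Estimated counts summed to between 11522979 and 15501002 per mouse. The TMM factors differed with the treatment, since controls had 0.844 to 0.991 and mice at 6 weeks 1.04 to 1.13, with 0.962 to 1.04 for the mice at 2 weeks. Of all counts, the median share that came from the mitochondrial genome was 23.2% for controls, 20.2% for mice at 2 weeks and 17.4% for mice at 6 weeks. The tissue label was checked on marker lists. The 13 cardiomyocyte genes outside the sarcomere summed to between 26310 and 45890 CPM in every mouse, and 11 genes of skeletal muscle summed to at most 2.17 CPM in any mouse.

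Per transcript length, the 2 ventricular myosin light chains and 5 of the 7 thin filament genes stood at the top of the list. In controls the mean TPM was 8679 ± 1589 (SD, n = 6) for Myl2, the ventricular regulatory light chain, and 4565 ± 321 for Myl3, the ventricular essential light chain. Cardiac troponin T (Tnnt2), cardiac actin (Actc1), cardiac troponin I (Tnni3), tropomyosin (Tpm1) and cardiac troponin C (Tnnc1) followed between 4407 ± 986 and 3450 ± 637 TPM, and these 5 means differed by less than the SD of Tnnt2 between mice. The lowest level belonged to Myom3, a myomesin, with 1.74 ± 0.393 TPM. The share of reads looked different, because long transcripts yield more reads: titin (Ttn) alone gave between 54.2% and 56.9% of the members' counts in controls, with 58% to 61% for mice at 2 weeks and 56.1% to 60.1% for mice at 6 weeks.

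At 6 weeks after 25 Gy, 17 of the 34 genes were lower than in controls and none was higher (edgeR's quasi-likelihood test, Benjamini-Hochberg adjusted P under 0.05 over all genes tested). Among all genes tested, 11.5% were called lower and 13.5% were called higher in this comparison. The changes were modest. The median log2 fold change of the 34 was -0.404 against -0.019 over all genes tested, and none of the 34 passed an absolute log2 fold change of 1, which 5.95% of all genes did with the same adjusted P. The sign was negative for 33 of 34, against 52.7% of all genes tested. In 7 members the 6 mice at 6 weeks all lay below the 6 controls, which held for 3.43% of all genes tested. Counted by mouse, 29 to 34 of the 34 members lay below the control mean in the mice at 6 weeks (median 31), 20 to 27 in those at 2 weeks (median 24.5) and 8 to 21 in controls (median 15). In whole tissue, fewer myocytes and less RNA of a gene per myocyte cannot be told apart.

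**Figure D1:**
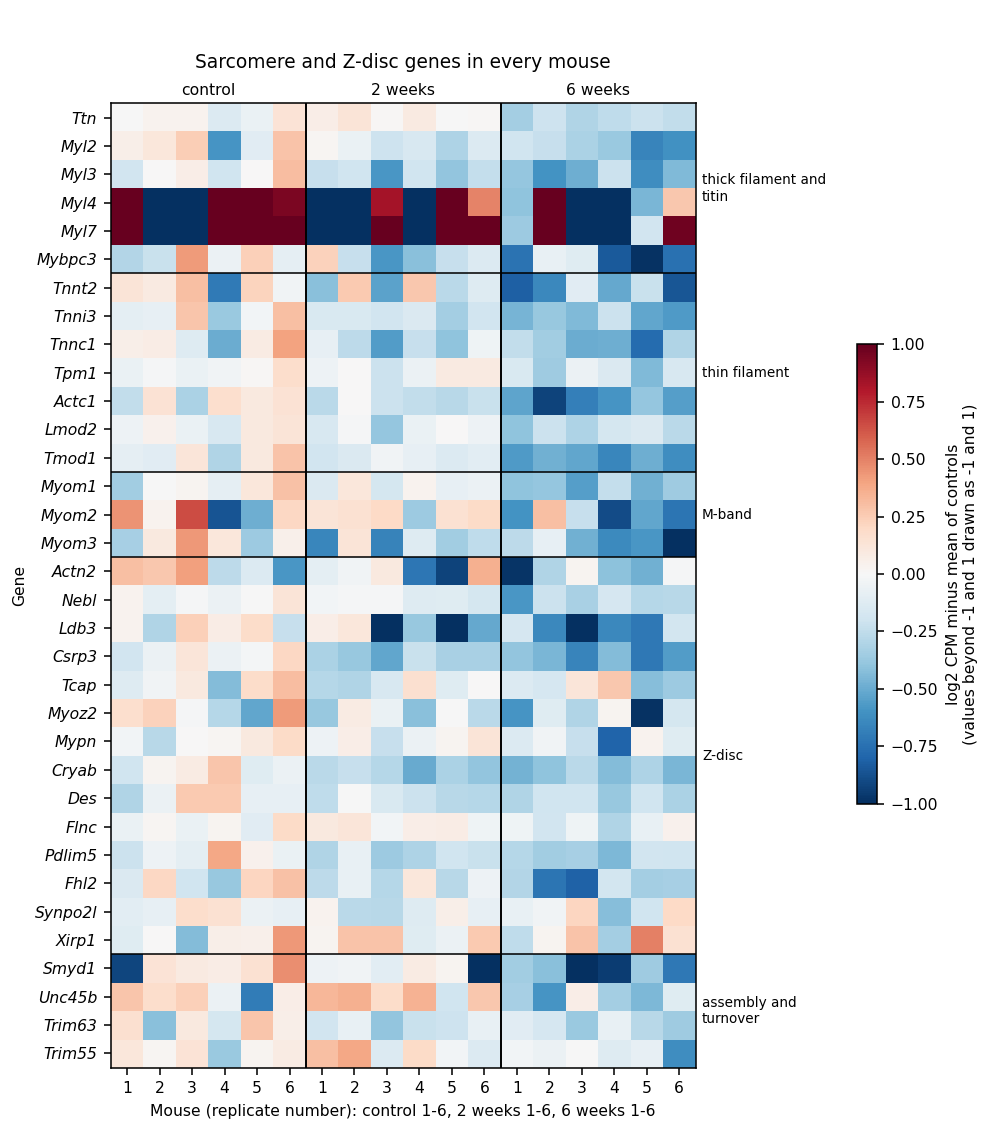
Each row is one of the 34 genes, grouped by role, and each column is a mouse; the colour is log2 CPM minus the mean of the 6 controls, and values beyond -1 and 1 are drawn as -1 and 1. The columns at 6 weeks are mostly blue (29 to 34 of 34 genes below the control mean), while Myl4 and Myl7 swing from mouse to mouse in every group.

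The size of this shift depended on the scaling. With library size as the only scaling, the median of all genes tested rose by 0.243 on the log2 scale at 6 weeks and 3 of the 34 members were called lower (Actc1, Tmod1 and Csrp3) instead of 17. Of all genes tested, 2.17% were called lower with that scaling. On log2(TPM + 1), tested with limma, the median of all genes rose by 0.29, none of the 34 members was called lower, and 4 were called higher: Ttn, Flnc, Synpo2l and Xirp1. That fit called 7406 of 15099 genes, with 0.868% of all genes called lower. Calls of higher were thus rarer among the members than among all genes. The sign of the fold change at 6 weeks turned in 9 of the 34 members with library size only and in 16 of the 34 on log2(TPM + 1), called or not. Mitochondrially encoded genes, whose transcripts are short, held a median of 38.4% of the TPM in controls and 33.05% at 6 weeks, and what part this shift had in the TPM values was not tested. The distance between the members and the median gene changed less. The members' median minus that of all genes tested was -0.385 with TMM, -0.378 with library size only and -0.287 on log2(TPM + 1). Without scaling, the 34 genes together took 8.82% to 10% of the counts in controls (median 9.44%), 9.75% to 10.6% at 2 weeks (median 10.2%) and 8.58% to 9.37% at 6 weeks (median 9.08%). The control range overlapped each of the others, while the ranges at 2 and 6 weeks lay apart. After TMM scaling the sum of the members was 92840 to 113900 CPM in controls and 79820 to 84870 CPM at 6 weeks, without overlap. The falls below are therefore falls relative to the bulk of other transcripts.

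**Figure D2:**
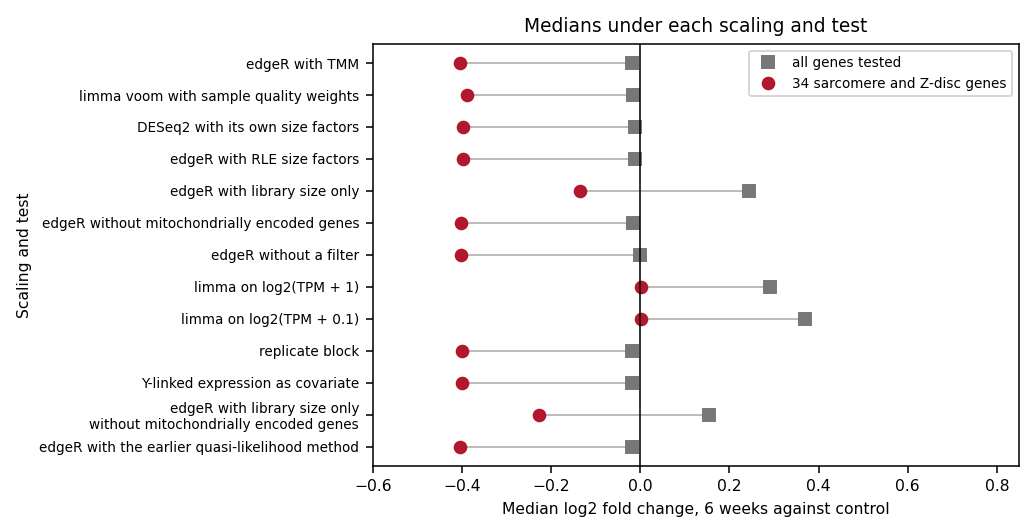
The horizontal axis is the median log2 fold change at 6 weeks against control, and each line is a scaling and test; squares are all genes tested and circles are the 34 sarcomere and Z-disc genes. Circles lie to the left of the squares in every line, from -0.404 against -0.019 with TMM to 0.00232 against 0.29 on log2(TPM + 1).

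The thin filament was the role with the largest share of calls, 6 of 7 genes. Tmod1 encodes tropomodulin, which caps the pointed end of the actin filament (ENSMUSG00000028328, chr4:46038935-46116032, plus strand). It measured 224 to 335 CPM in the 6 controls (median 277), 242 to 269 at 2 weeks (median 253) and 175 to 197 at 6 weeks (median 189). Every mouse at 6 weeks lay below every control and every mouse at 2 weeks, and the fall from controls was 32.4% (log2 fold change -0.57 ± 0.08, adjusted P = 3.34e-05). Actc1 encodes cardiac alpha-actin, the filament itself (ENSMUSG00000068614, chr2:114047282-114053548, minus strand). Its levels ran from 3760 to 5251 CPM in the 6 controls (median 5085), 3852 to 4673 at 2 weeks (median 3967) and 2465 to 3566 at 6 weeks (median 3149). The 6-week mice again lay apart from both other groups, 34.7% below controls (log2 fold change -0.61 ± 0.10, adjusted P = 0.000292). These 2 genes kept the call without TMM scaling, with log2 fold changes of -0.30 and -0.35 by library size only.

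The 3 troponin subunits fell by similar amounts. Tnni3, the inhibitory subunit, ranged from 2272 to 3617 CPM in controls (median 2831) and from 1982 to 2531 at 6 weeks (median 2144), a fall of 26.6% (log2 fold change -0.45 ± 0.10, adjusted P = 0.00272). Tnnc1, the subunit that binds calcium, ranged from 1224 to 2285 CPM in controls (median 1812) and from 1015 to 1458 at 6 weeks (median 1295) (log2 fold change -0.46 ± 0.13, adjusted P = 0.012). Tnnt2, which ties the complex to tropomyosin, ranged from 2817 to 5667 CPM in controls (median 4961) and from 2542 to 4254 at 6 weeks (median 3085) (log2 fold change -0.53 ± 0.18, adjusted P = 0.0367). All 3 ranges overlapped between the groups, and Tnnt2 spread the most, with 1 control at 2817 CPM below the median at 6 weeks. Lmod2, leiomodin, which elongates thin filaments at the pointed end that Tmod1 caps, fell by 16.2%, from a median of 662 to 559.7 CPM (log2 fold change -0.26 ± 0.07, adjusted P = 0.0119). Tpm1, the main cardiac tropomyosin, was the one thin filament gene without a call (log2 fold change -0.21 ± 0.08, adjusted P = 0.0602).

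Among the thick filament genes, 3 of 6 were called lower. Myl3 (ENSMUSG00000059741, chr9:110741861-110769798, plus strand) measured 3264 to 4632 CPM in the 6 controls (median 3754), 2502 to 3254 at 2 weeks (median 3178) and 2427 to 3213 at 6 weeks (median 2706). All 6 mice at 6 weeks lay below the lowest control (log2 fold change -0.46 ± 0.10, adjusted P = 0.00188). Myl2, its regulatory partner, fell by 24.9% with overlapping groups (log2 fold change -0.41 ± 0.12, adjusted P = 0.0213). Mybpc3, myosin-binding protein C, which links the thick filament to actin and titin, ranged from 2406 to 3962 CPM in controls (median 2789) and from 1486 to 2801 at 6 weeks (median 1760) (log2 fold change -0.56 ± 0.17, adjusted P = 0.0233), and 2 mice at 6 weeks stayed at 2699 and 2801 CPM, inside the control range. Titin itself was not called, although its groups did not overlap: 52670 to 63670 CPM in controls, 57550 to 63330 at 2 weeks and 45670 to 50020 at 6 weeks (log2 fold change -0.26 ± 0.12, adjusted P = 0.113). That P value depended on the model, since DESeq2 gave Ttn an adjusted P of 2.69e-07 and limma voom 0.00129 at nearly the same fold change (-0.26 and -0.27). On log2(TPM + 1) the sign for Ttn turned, with 0.19 at 6 weeks.

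Of the 14 Z-disc genes, 6 were called lower at 6 weeks. Csrp3 encodes muscle LIM protein, a Z-disc protein with roles in mechanical signalling (ENSMUSG00000030470, chr7:48830398-48848033, minus strand). It measured 654 to 864 CPM in the 6 controls (median 727), 521 to 639.5 at 2 weeks (median 596) and 455 to 568 at 6 weeks (median 527). All irradiated mice at both times lay below all controls (log2 fold change -0.54 ± 0.07, adjusted P = 5.29e-05 at 6 weeks). Cryab encodes a small heat shock protein that protects desmin and titin (ENSMUSG00000032060, chr9:50751325-50756636, plus strand). Its levels were 1241 to 1731 CPM in the 6 controls (median 1414), 1010 to 1218 at 2 weeks (median 1159) and 1032 to 1182 at 6 weeks (median 1070), again with no overlap between controls and irradiated mice (log2 fold change -0.40 ± 0.08, adjusted P = 0.000814 at 6 weeks). Nebl, nebulette, which binds actin at the Z-disc (ENSMUSG00000053702, chr2:17343909-17731464, minus strand), fell by 19.1% without overlap, ranging from 344 to 403 CPM in controls (median 366) and from 245 to 326 at 6 weeks (median 302) (log2 fold change -0.31 ± 0.06, adjusted P = 0.00151). Fhl2, a LIM protein bound to titin, fell by 26.9% (log2 fold change -0.45 ± 0.13, adjusted P = 0.0136). Pdlim5, a scaffold for kinases at the Z-disc, fell by 19.4% (log2 fold change -0.31 ± 0.08, adjusted P = 0.0103). Des, desmin, the intermediate filament that ties Z-discs together, fell by 17.5% (log2 fold change -0.28 ± 0.09, adjusted P = 0.026). The last 3 had overlapping groups.

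The remaining 8 Z-disc genes carried no call at 6 weeks. Tcap, telethonin, which caps titin at the Z-disc, was nearly level (log2 fold change -0.12 ± 0.13, adjusted P = 0.564), as were Synpo2l (-0.04 ± 0.10), Xirp1 (0.07 ± 0.14) and filamin C, Flnc (-0.10 ± 0.07). Xirp1, which binds actin bundles, was the only one of the 34 with a positive log2 fold change at 6 weeks under TMM. Ldb3, a PDZ-LIM scaffold bound to alpha-actinin, had a log2 fold change close to that of Actc1 (-0.60 ± 0.24, adjusted P = 0.0842) but no call. Of the irradiated mice, 3 mice stood at 361.8, 394 and 428.8 CPM against a control range of 836.9 to 1217 CPM, and the other irradiated mice lay between 628 and 1114 CPM. In those same mice the mean length of the Ldb3 transcripts was the shortest of the 18, by 0.142 to 0.21 on the log2 scale below the control mean. Actn2, alpha-actinin, which cross-links actin at the Z-disc, Myoz2 and Mypn gave -0.36 ± 0.22, -0.35 ± 0.17 and -0.20 ± 0.11.

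In the M-band, Myom1 fell by 24.8% (log2 fold change -0.41 ± 0.09, adjusted P = 0.00209), with levels of 1048 to 1634 CPM in the 6 controls (median 1343), 1179 to 1441 at 2 weeks (median 1267) and 907 to 1128 at 6 weeks (median 1015). Myom2 and Myom3 had log2 fold changes of a similar size (-0.48 ± 0.23 and -0.49 ± 0.18) and did not pass (adjusted P = 0.133 and 0.051). Of the genes for assembly and turnover, Smyd1, a methyltransferase needed for myosin assembly, had the lowest fold change among the called genes: 206 to 535 CPM in controls (median 421) and from 154 to 306 at 6 weeks (median 264), a fall of 38.4% (log2 fold change -0.70 ± 0.21, adjusted P = 0.0201). A control mouse, at 206 CPM, lay within the range at 6 weeks. The myosin chaperone Unc45b (-0.31 ± 0.14) and the ubiquitin ligases of the sarcomere, Trim63 (-0.24 ± 0.10) and Trim55 (-0.15 ± 0.12), were not called.

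**Figure D3:**
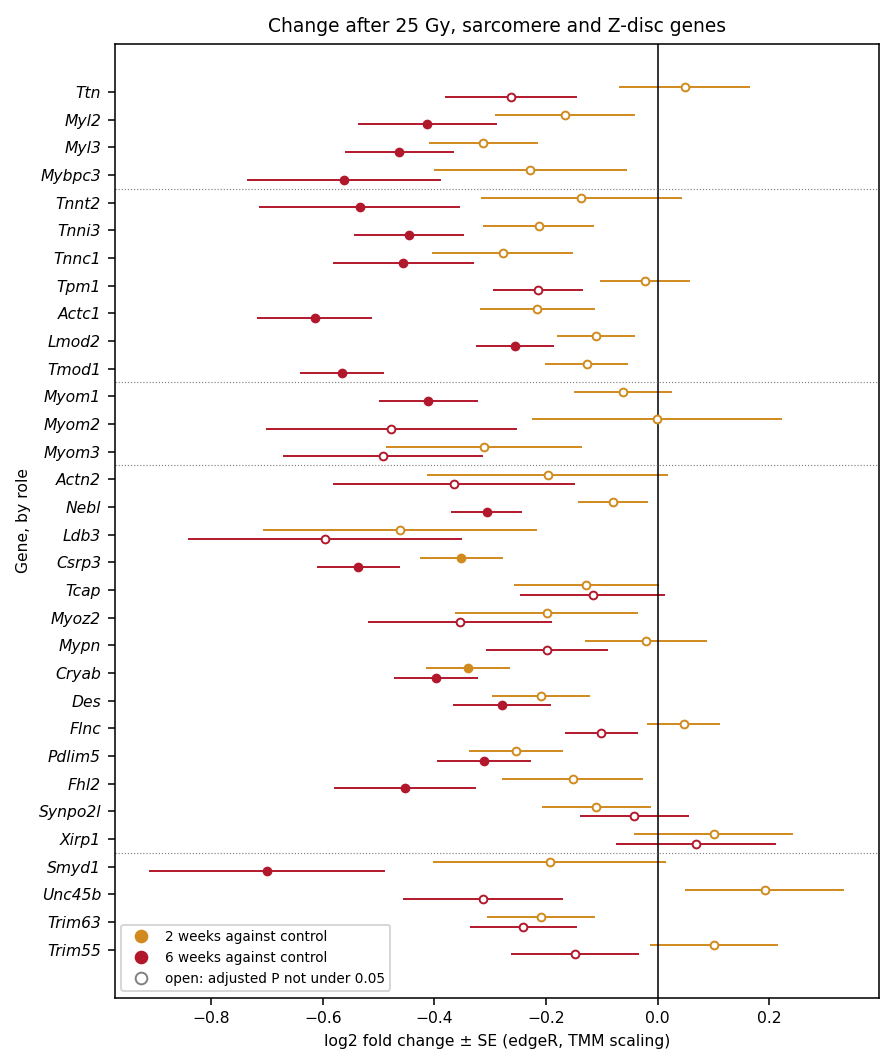
The horizontal axis is the log2 fold change against controls with its standard error, at 2 weeks and at 6 weeks; filled points passed an adjusted P under 0.05, and Myl4 and Myl7 are left out because their errors are near 1 or more. The points at 6 weeks lie left of 0 for every gene shown but Xirp1, and only Csrp3 and Cryab are filled at 2 weeks.

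The spread between mice differed widely from gene to gene. The pooled SD of log2 CPM between mice of a group ran from 0.0689 for Ttn, 0.103 for Flnc and 0.104 for Nebl to 0.426 for Smyd1, 0.432 for Myom2 and 0.483 for Ldb3, with Myl4 (2.52) and Myl7 (3.42) far above these. The median was 0.213. Of the 17 members with the smaller spread, 11 were called at 6 weeks, with a median log2 fold change of -0.306 over the 17. Of the 17 with the larger spread, 6 were called, although their median was -0.456. The absence of a call in Ldb3, Myom2, Actn2 or Myom3 therefore does not show an absence of change.

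At 2 weeks, 2 of the 34 genes were called, both lower, against 1.93% of all genes tested. These were Csrp3 (log2 fold change -0.35 ± 0.07, adjusted P = 0.0114) and Cryab (log2 fold change -0.34 ± 0.08, adjusted P = 0.015), which fell by 21.6% and 21%. None passed an absolute log2 fold change of 1, against 0.903% of all genes. In 3 members the groups did not overlap, against 1.28% of all genes tested: Csrp3, Cryab and Myl3, whose adjusted P was 0.071 (-0.31 ± 0.10). The sign was negative for 27 of the 34, against 50.3% of all genes, and the members' median was -0.145. Both calls were lost with library size as the only scaling, under which no member was called at 2 weeks. On log2(TPM + 1) 3 other genes, Ttn, Myom1 and Flnc, were called higher. That fit called 2792 of 15099 genes at 2 weeks, with 0.258% of all genes called lower. The comparisons with controls at 2 and 6 weeks share the 6 control mice, so their values are set side by side here without a measure of likeness. For Csrp3 they were -0.35 and -0.54, for Cryab -0.34 and -0.40, for Tmod1 -0.13 and -0.57, and for Myom1 -0.06 and -0.41.

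Directly between 6 and 2 weeks, 5 of the 34 genes were lower at 6 weeks and none was higher, against 2.01% of all genes tested called lower and 3.31% called higher. Tmod1 fell by 26.2% (log2 fold change -0.44 ± 0.08, adjusted P = 0.00384), Actc1 by 24.1% (log2 fold change -0.40 ± 0.10, adjusted P = 0.0332), Myom1 by 21.5% (log2 fold change -0.35 ± 0.09, adjusted P = 0.03) and Nebl by 14.6% (log2 fold change -0.23 ± 0.06, adjusted P = 0.0433). The last was Unc45b, a chaperone that folds the myosin head, which measured 98.8 to 195 CPM in the 6 controls (median 175), 139.7 to 206 at 2 weeks (median 198) and 107 to 168 at 6 weeks (median 127) (log2 fold change -0.51 ± 0.14, adjusted P = 0.0464), and which was not called against controls at either time. The groups did not overlap for Ttn, Actc1, Tmod1 and Myom1, 4 members, against 1.27% of all genes. No member passed an absolute log2 fold change of 1, against 1.14% of all genes, and 32 of 34 signs were negative, against 50.2%. Tmod1 was the only gene of the 5 that was called in this comparison under all 12 other settings of scaling, filter and model. When 1 mouse was left out, the count of 5 fell to 1 without 2-week replicate 2, 4 or 6 or 6-week replicate 1 or 6, to 2 without 2-week replicate 1 or 3 or 6-week replicate 3 or 5, and to 3 without 6-week replicate 2.

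**Figure D4:**
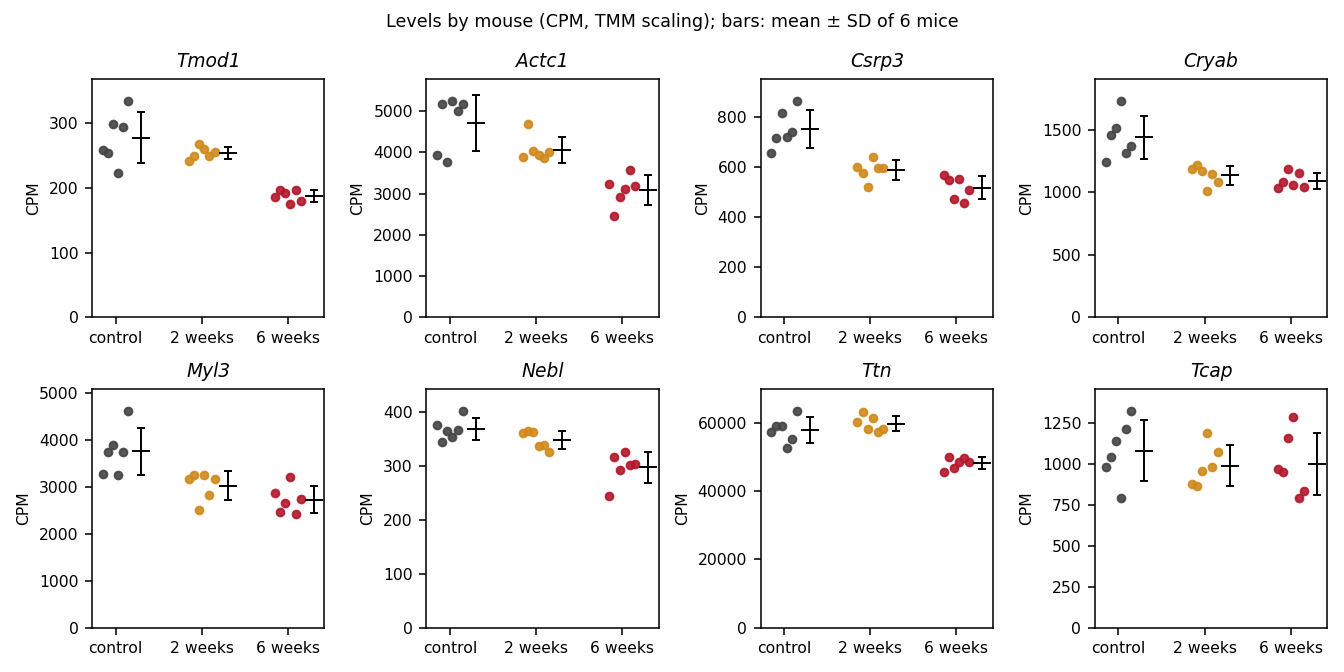
Each panel shows the CPM (TMM scaling, axis from 0) of a gene in the 18 mice by group, with the mean ± SD of 6 mice beside the points. Tmod1 and Actc1 at 6 weeks lie below both other groups, Csrp3 and Cryab lie below controls at both times, Myl3, Nebl and Ttn lie below controls at 6 weeks, and Tcap overlaps throughout.

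Ratios of members that share a role do not depend on the scaling of a mouse, so 12 such pairs were compared in 3 comparisons, 36 tests in all. These tests were not among those planned at the outset. Tmod1, in the first pair below, had the smallest adjusted P of the 34 members at 6 weeks by edgeR. The adjustment over the 36 tests does not account for how the pairs were chosen. The log2 ratio of Tmod1 to Lmod2, which act at the same filament end, was -1.27 ± 0.145 (SD, n = 6) in controls, -1.27 ± 0.179 at 2 weeks and -1.57 ± 0.112 at 6 weeks. The ratio at 6 weeks differed from controls by -0.30 and from 2 weeks by -0.297 (two-sided exact permutation tests, P = 0.00216 each, adjusted over the 36 tests 0.039), and the groups did not overlap. That P is the smallest that a permutation of 6 mice against 6 can give. With single mice left out, the difference stayed between -0.332 and -0.263 against controls and between -0.325 and -0.226 against 2 weeks. The adjusted P of this exact test then lay between 0.039 and 0.104 and stayed under 0.05 in 5 of 18 cases for each of the 2 comparisons. Leaving out a mouse of either compared group does not raise the smallest P that this test can give. What part the coarse steps of this test had in the lost calls was not tested. The log2 ratio of Tcap to its Z-disc partner Csrp3 was 0.515 ± 0.199 in controls and 0.931 ± 0.253 at 6 weeks, and this difference did not pass the adjustment (difference 0.417, exact permutation test P = 0.00433, adjusted 0.0519). No other of the 36 tests had an adjusted P under 0.136. For the troponins, the 6-week differences were -0.095 for Tnnt2 to Tnni3 and -0.00914 for Tnnc1 to Tnni3 on the log2 scale. The mean transcript length of each gene, which moves when isoforms shift, was compared in the same way. No gene passed an adjusted P of 0.05 over the 102 tests, and at an unadjusted P under 0.05 (exact permutation test) there were 1 of 34 genes at 2 weeks, 0 of 34 at 6 weeks and 1 of 34 for 6 against 2 weeks. Since this test cannot give a P below 0.00216, a single gene could not pass the adjustment over 102 tests, however clear its shift. The absence of a call in transcript length therefore does not show an absence of change.

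Myl4 and Myl7, the light chains of atrial myosin, varied between mice far more than the other 32 members. Myl7 ranged from 0.555 to 58.6 CPM in controls, from 0.0734 to 290 at 2 weeks and from 0.222 to 59.4 at 6 weeks, and Myl4 from 1.39 to 51.9, from 0.587 to 201 and from 0.89 to 43.2 CPM. The groups overlapped almost fully and neither gene passed in any comparison (lowest adjusted P 0.408 for Myl7 and 0.445 for Myl4, both between 6 and 2 weeks). The 2-week replicate 5 stood highest in both, with 201.3 CPM of Myl4 and 290 CPM of Myl7. Of the 9 markers of atrial myocytes, some followed the 2 genes from mouse to mouse and others did not; the examples were chosen after their values were seen. Sarcolipin (Sln), a calcium pump regulator of atrial muscle, was 91.6 CPM in that mouse and 0 in 2-week replicate 1, where Myl7 was 0.0734 CPM. Control replicate 3, with 0.555 CPM of Myl7, had 0.463 CPM of Sln, and 6-week replicate 4, with 0.222 CPM of Myl7, had 0.0741 CPM. Natriuretic peptide A (Nppa) did not follow, with 222 CPM in control replicate 1 (Myl7 at 58.6 CPM) and 329.9 CPM in control replicate 2 (Myl7 at 2.33 CPM). Nr2f2 was nearly level in controls, at 15.5 to 19.1 CPM. The 9 atrial markers had sums of 272.2 to 1596 CPM in controls, 217.9 to 945 CPM at 2 weeks and 118.3 to 743.2 CPM at 6 weeks, a sum dominated by Nppa, and Bmp10 was at most 0.597 CPM in any mouse. Of the 7 atrial markers tested by edgeR, none was called at 2 weeks and 2 were called lower at 6 weeks, against 11.5% of all genes tested. These were Stard10 (log2 fold change -0.72 ± 0.25, adjusted P = 0.0417) and Myl1 (-1.11 ± 0.35, adjusted P = 0.0259), and all 7 signs at 6 weeks were negative. The part of atrial tissue in these values was not tested. The ventricular light chains did not follow this pattern, since in 2-week replicate 5 Myl2 was the lowest of its group at 3588 CPM and Myl3, at 2837 CPM, lay within the range of the others. Without Myl4 and Myl7 the counts of calls were the same, and the members' median log2 fold change at 6 weeks was -0.38.

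**Figure D5:**
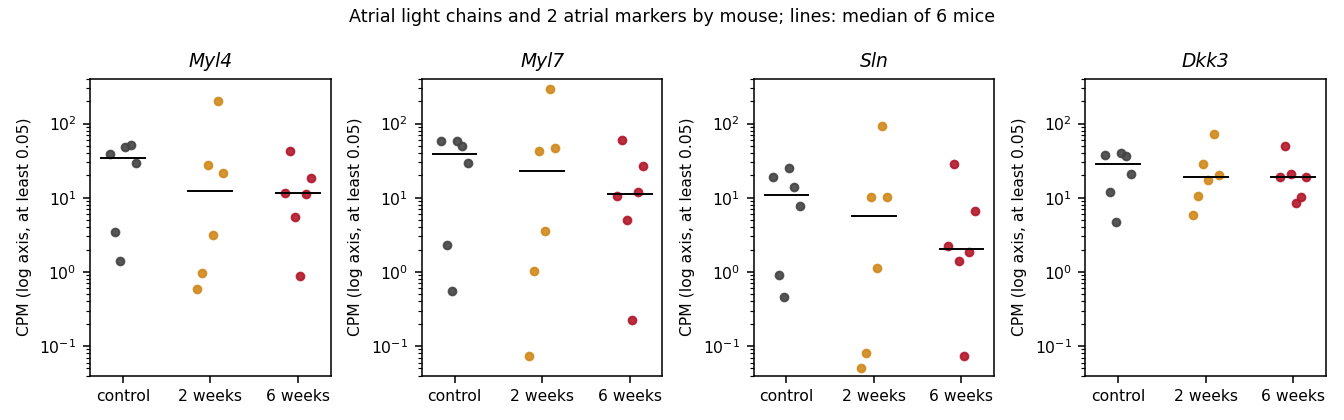
Each panel shows CPM on a log axis in the 18 mice, for the atrial light chains Myl4 and Myl7 and the atrial markers Sln and Dkk3, with a line at the median of each group; a level of 0 is drawn at the axis floor that the axis label names. The same 2-week mouse is highest in all 4 panels (Myl7 at 290 CPM), and in the first 3 panels values within a group lie far apart, from 0.0734 to 290 CPM for Myl7 at 2 weeks.

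A further list of 50 sarcomere genes outside the 34, of which 48 were tested, gave a mixed picture. At 6 weeks 15 (31.2%) were called lower and 4 higher, against 11.5% of all genes tested called lower and 13.5% called higher. The alpha myosin heavy chain Myh6, the motor of the adult mouse heart, fell by 27.3%, ranging from 12730 to 22750 CPM in controls (median 19260) and from 11190 to 17010 at 6 weeks (median 13380) (log2 fold change -0.46 ± 0.14, adjusted P = 0.0259). The beta heavy chain Myh7, the fetal form, was not called (log2 fold change 0.90 ± 0.35, adjusted P = 0.0715), with 423 to 2386 CPM at 6 weeks against 481 to 983 in controls. By fold, those called beyond 1.5-fold were Tnnt1, the slow skeletal troponin T (log2 fold change -0.82 ± 0.20, adjusted P = 0.00505), Fhod3, a formin that builds thin filaments (log2 fold change -0.73 ± 0.18, adjusted P = 0.0052), Smpx (log2 fold change -0.59 ± 0.14, adjusted P = 0.00518), Ankrd1, a titin-bound stress protein (log2 fold change 0.61 ± 0.17, adjusted P = 0.0118), and the tropomyosins Tpm3 (log2 fold change 1.27 ± 0.34, adjusted P = 0.00907) and Tpm4 (log2 fold change 1.22 ± 0.20, adjusted P = 0.000269), which are also made outside muscle. All 6-week mice, at 86.4 to 165 CPM of Tpm4, lay above all controls, at 32.5 to 74.7 CPM. At 2 weeks 3 of the 48 (6.25%) were called, all lower, against 1.93% of all genes tested called lower. These were Myot, myotilin of the Z-disc (log2 fold change -0.69 ± 0.17, adjusted P = 0.026), Klhl41 (log2 fold change -0.35 ± 0.08, adjusted P = 0.0166) and Dmd, dystrophin (log2 fold change -0.30 ± 0.07, adjusted P = 0.0234). Between 6 and 2 weeks, Tpm4 was higher (0.70 ± 0.20, adjusted P = 0.0476) and the kinases Mylk3 (-0.38 ± 0.10) and Speg (-0.35 ± 0.09) were lower. Of all genes tested, 3.31% were called higher and 2.01% lower between these times. With library size only, the 6-week calls in this list turned to 3 lower and 8 higher. That fit called 5820 of 15054 genes at 6 weeks, with 2.17% of all genes called lower.

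Genes of the cardiomyocyte outside the sarcomere were lower as well. Of 13 such genes, among them the calcium pump Atp2a2, the ryanodine receptor Ryr2, phospholamban (Pln) and creatine kinase (Ckm), 12 were called lower at 6 weeks (median log2 fold change -0.435), 3 at 2 weeks (median -0.235) and 2 between 6 and 2 weeks (median -0.203). Their sum was 32780 to 45890 CPM in controls and 26310 to 32840 CPM at 6 weeks. Of 8 macrophage markers, 7 were called higher at 6 weeks (median 1.25), and their sum was 105.8 to 266.3 CPM in controls and 249 to 352 CPM at 6 weeks. Of 8 endothelial markers, 2 were higher and 2 lower, of 8 fibroblast markers 1 was lower, and of 8 smooth muscle and pericyte markers none was called. What part a change in the mix of cells had in the members' values was not tested.

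The promoters of the members, called or not, were also searched for short motifs. RefSeq promoter windows on GRCm38.p6 were matched by symbol for 29 of the 34 genes, in 40 windows, and the 250 bases before each annotated start were searched on both strands. The CArG box, the site of serum response factor, a regulator of muscle genes, was found in 7 of the 29 genes, against 1.62% of all 27025 genes with a window. Of 16 genes called lower at 6 weeks, 5 held it, and of 13 not called, 2 did. The MEF2 site, bound by myocyte enhancer factor 2, was found in 6 of 29 (2 of 16 called and 4 of 13 not called), against 3.42% of all genes. The TATA box, searched as TATAAA, was in 6 of 29 genes against 14.3% of all genes. The M-CAT element of the TEAD factors, searched as CATTCC, was in 10 of 29 against 14.4%. A site of the GATA factors, searched as AGATAA, was in 5 of 29 (5 of 16 called and 0 of 13 not called) against 11.4%. The E-box, searched as CANNTG, was in 23 of 29 against 69.3%. Genes with several windows have more chances of a match, and letters shared by overlapping motifs were counted for each. A match is only a run of letters and not evidence of binding, and a window without one says nothing about the factor.

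A set of 5 windows is shown because it holds the 2 muscle motifs in genes that were called (Actc1, Fhl2, Nebl, Mybpc3) and in one that was not (Myl7). They run 5' to 3' on the strand of the gene and end at the base before the RefSeq start, and the capitals mark the CArG box or, in Mybpc3, the MEF2 site. The motif begins 47 bases before the start in Actc1 (chr2:114052876-114053125, minus strand), 31 in Fhl2 (chr1:43163962-43164211, minus strand), 162 in Nebl (chr2:17462857-17463106, minus strand), 90 in Mybpc3 (chr2:91117894-91118143, plus strand) and 61 in Myl7 (chr11:5898783-5899032, minus strand). The windows of Actc1, Fhl2 and Nebl lie inside the annotated span of the gene, and whether transcription starts there was not tested. The other windows of Nebl hold no CArG box. A second window of Fhl2, not shown (chr1:43196762-43197011, minus strand), holds a CArG box 96 bases and a MEF2 site 31 bases before its start. Of its 250 bases, 223 lie in annotated exons.
Actc1: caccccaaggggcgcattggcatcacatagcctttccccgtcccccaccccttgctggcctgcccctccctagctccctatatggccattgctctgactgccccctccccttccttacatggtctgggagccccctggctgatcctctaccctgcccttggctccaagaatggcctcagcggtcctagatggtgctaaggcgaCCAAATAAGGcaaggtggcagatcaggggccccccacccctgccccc
Fhl2: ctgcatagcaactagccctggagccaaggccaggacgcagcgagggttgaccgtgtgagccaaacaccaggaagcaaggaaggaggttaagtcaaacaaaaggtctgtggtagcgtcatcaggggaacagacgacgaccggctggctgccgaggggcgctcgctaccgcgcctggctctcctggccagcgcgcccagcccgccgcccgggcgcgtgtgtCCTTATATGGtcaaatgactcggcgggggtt
Nebl: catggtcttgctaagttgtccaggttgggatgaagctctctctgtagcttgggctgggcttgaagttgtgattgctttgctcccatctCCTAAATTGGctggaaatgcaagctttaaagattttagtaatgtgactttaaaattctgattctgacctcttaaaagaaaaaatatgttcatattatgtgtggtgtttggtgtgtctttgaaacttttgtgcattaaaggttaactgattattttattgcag
Mybpc3: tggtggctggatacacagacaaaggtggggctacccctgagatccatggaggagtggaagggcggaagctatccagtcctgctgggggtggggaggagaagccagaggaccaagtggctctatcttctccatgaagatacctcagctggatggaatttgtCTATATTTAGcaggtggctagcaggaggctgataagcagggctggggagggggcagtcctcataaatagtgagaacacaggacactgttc
Myl7: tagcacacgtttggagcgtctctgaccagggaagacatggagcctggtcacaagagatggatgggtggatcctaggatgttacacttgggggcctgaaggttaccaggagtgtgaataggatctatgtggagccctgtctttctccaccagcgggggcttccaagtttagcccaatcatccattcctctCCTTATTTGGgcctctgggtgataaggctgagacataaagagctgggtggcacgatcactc

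Reads shared with other genes put a limit on some of these values. Of the 34 genes, 12 overlap another gene of the tables on the genome, 9 of the 17 called lower at 6 weeks among them (for example Cryab with Hspb2 and Tmod1 with Tstd2), and whether strand was used in the authors' quantification is not given in the sources used here. Stretches of 31 bases that also occur in transcripts of other genes made up more than 1% of the sequence of 5 members, with 5.79% in Tnnc1, 3.35% in Tmod1, 2.62% in Tnni3, 1.54% in Actn2 and 1.01% in Myom2.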

How the data were processed

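RNA-seq libraries from 18 mice (6 per group) were made with a KAPA RNA HyperPrep kit and sequenced as paired reads on a NovaSeq. Per the labels and the study's methods, the authors converted the runs with CASAVA 1.8, aligned reads to GRCm38 with STAR 2.7.3a, quantified transcripts with Salmon 1.0 and summed them per gene. The deposited tables hold estimated counts, which are not normalized, and TPM, which the authors scaled by transcript length and to a fixed total per library, for 30072 Ensembl genes, of which 29301 were given a symbol.

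Estimated counts were rounded, scaled by TMM and tested in 1 fit of all 18 mice with edgeR 4.0.16 (quasi-likelihood test, R 4.3.3) on genes that reached 0.23 CPM in 6 or more mice. P values are two-sided and adjusted by Benjamini-Hochberg over all genes tested in a comparison, and standard errors were derived from the log2 fold change and its F statistic. Ratios and mean transcript lengths (from estimated count over TPM) were compared by exact permutation tests. Alternatives were DESeq2 1.42.0, limma 3.58.1 (voom with sample quality weights, since the study names limma with weights but not their kind, and log2 TPM with a pseudocount of 1 or 0.1), other scalings and filters, a replicate block, a covariate for Y-linked expression and fits that left out 1 mouse at a time. The code was tested on simulated data. The members and gene lists were chosen with earlier results of these data known. Every member called was named with its values, and other sarcomere genes were named when called beyond a log2 fold change of 0.585, at most 8 per comparison. Myh6, Myh7, Klhl41, Dmd, Mylk3 and Speg were named outside that rule, after their values were seen.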

Additional observations from a re-analysis of the deposited data

Results flagged for a closer look

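In 11 of the 102 groups of 6 mice examined for the 34 genes, 1 mouse stood apart from the other 5 by Dixon's criterion, where chance gives about 5.1. At 2 weeks, replicate 5 was highest for Myl4 (201.3 CPM, next 27.54) and Myl7 (290 CPM, next 46.91), and lowest for Tnni3 (2325 CPM, next 2571) and Unc45b (139.7 CPM, next 182.7). The same mouse had the highest levels of the atrial marker Sln. At the same time point replicate 2 was highest for Actc1 (4673 CPM, next 4021), replicate 4 was lowest for Myom2 (895.1 CPM, next 1257) and replicate 6 was lowest for Smyd1 (195.3 CPM, next 361.4). Among controls, replicate 6 was highest for Tpm1 (5096 CPM, next 4544) and replicate 4 was lowest for Trim55 (39.2 CPM, next 51.41). At 6 weeks, replicate 4 was lowest for Mypn (121.5 CPM, next 181.1) and replicate 6 was lowest for Trim55 (33.11 CPM, next 46.55).

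The level in irradiated mice differed between the 2 times for 5 genes, by the direct test of 6 against 2 weeks in edgeR. The log2 fold change was -0.398 for Actc1, -0.4383 for Tmod1, -0.3487 for Myom1, -0.2271 for Nebl and -0.5052 for Unc45b. The controls were 1 group, for which the labels give no week. Time since irradiation, age and time of collection therefore cannot be told apart here.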

How the results depend on the processing

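Against 2, 17 and 5 members called at 2 weeks, at 6 weeks and between 6 and 2 weeks, library size only gave 0, 3 and 2. Library size without mitochondrially encoded genes, an alternative chosen after seeing the data, gave 1, 7 and 2. On log2 TPM, with a pseudocount of 1 or 0.1, there were 4 calls at 6 weeks, all higher, and 1 between 6 and 2 weeks. With the pseudocount of 1, 7406 of 15099 genes were called at 6 weeks and 2792 at 2 weeks. DESeq2 gave 4 at 2 weeks, and a limit of 1 on the absolute log2 fold change gave 0, 0 and 0. In the other settings run at 6 weeks, apart from the replicate block, 17 to 20 members were called, all of the 17 among them. Of the other sarcomere genes (3, 19 and 3 called), DESeq2 gave 5 at 2 weeks and 5 between 6 and 2 weeks. For these genes voom gave 5 between 6 and 2 weeks, and the limit of 1 gave 0, 2 and 0. On log2 TPM 9 of them were called at 2 weeks, all higher. With the pseudocount of 1 that fit called 2792 of 15099 genes, with 0.258% of all genes lower. Library size only gave 11 of them at 6 weeks, where it called 5820 of 15054 genes, with 2.17% of all genes lower.

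Over all 34 members, called or not, the sign turned with library size only in 11 at 2 weeks, 9 at 6 weeks and 5 between 6 and 2 weeks, and on log2(TPM + 1) in 23, 16 and 9. Among members called in either of the fits compared, it turned on log2 TPM, with pseudocounts of 1 and 0.1 respectively, for Myom1 at 2 weeks (0.1921 and 0.1928) and at 6 weeks for Ttn (0.191 and 0.1911), Myl2 (0.02117 in both), Lmod2 (0.1458 and 0.1462), Nebl (0.1271 and 0.128), Cryab (0.005198 and 0.005208), Des (0.1222 and 0.1224), Flnc (0.326 and 0.3287) and Synpo2l (0.3451 and 0.3497). With library size only, the one such member was Lmod2 at 6 weeks (0.009065). The cause was not tested.

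With 1 mouse left out, 2 to 4, 13 to 18 and 1 to 5 members were called, and 2 to 5, 14 to 20 and 0 to 5 of the other sarcomere genes. The count of 13 came without control replicate 3 or 6-week replicate 6, and the count of 4 without control replicate 1. For the other sarcomere genes, the count at 2 weeks reached 5 without 2-week replicate 4, and that between 6 and 2 weeks was 0 without 2-week replicate 2 or 6-week replicate 1 or 6, 1 without 2-week replicate 3 or 6 or 6-week replicate 5, and 5 without 6-week replicate 2 or 4. Of the 17 calls at 6 weeks, Tnnt2 held in 9 of 18 such fits, Mybpc3 and Des in 13, Myl2 in 15, Smyd1 in 17, and the others in all 18.

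Replicate numbers were not used as pairs in the main fit. Same-numbered mice had correlations of their deviations between -0.103 and 0.12 (median 0.0384). For mice of other groups with different numbers they lay between -0.223 and 0.211 (median -0.0147). Of 18 mice, 6 correlated best with their own number. The sum of Y-linked genes was at most 1.76 CPM in replicates 1 to 3 and between 128.6 and 164 CPM in replicates 4 to 6 of every group. By this readout replicates 1 to 3 were female and replicates 4 to 6 male, so the numbers tracked sex, which the labels do not give. With this sum as a covariate, 2, 18 and 5 members were called. With the replicate block, 2, 16 and 3 members and 3, 16 and 1 other sarcomere genes were called.

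Depth allowed every member to be tested. Standard errors at 6 weeks were above 0.2 on the log2 scale for Ldb3, Myom2, Actn2 and Smyd1, and above 1 for Myl4 and Myl7. Of these genes only Smyd1 was called, with a log2 fold change of -0.70. Smaller changes, of the size seen in other members, could not be detected reliably in these genes.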
